A study of Homo sapiens with 12 samples.

Results

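The proteasome subunit genes were examined in HGC-27, a line of undifferentiated human gastric cancer cells. Members were chosen by name, as the rows whose gene symbol is PSM followed by a letter from A to G and a number. The reference table of gene names holds 48 such symbols, and 47 of them matched a row of the 20345 rows in the expression table. PSMB3 had no matched row and was not analysed here. A mean of at least 1 FPKM over all 12 libraries was reached by 45 of the 47 genes, and these 45 were tested among 11225 rows that passed the same limit. FPKM counts the fragments of a gene scaled to its transcript length and to the mapped total of the library. The lowest member inside the limit was PSMD9 at a mean of 8.70 FPKM, and the highest outside it was PSMB11 at 0.00639 FPKM. PSMA8, a testis form of an alpha subunit, was listed at 0 in every library. The 45 genes comprised 16 of the core particle, 20 of the base and lid of the regulatory particle, and 9 regulators and assembly factors.

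RNA was sequenced from 12 libraries in 4 groups of 3. WT cells carry no genotype entry in the labels and were untreated (libraries 1, 2 and 3) or given GLUP peptide (libraries 14, 15 and 16). Cells with the genotype entry TEAD4KO, a knockout of the transcription factor TEAD4, were likewise untreated (1, 2 and 3) or given GLUP (14, 15 and 16). GLUP is a disulfide-cyclized peptide that carries repeats of a TEAD4-binding motif and was made to hold TEAD4 molecules together. For RNA sequencing the paper names a stocking buffer of HEPES and NaCl, also used for its purified proteins, as the negative control. How the TEAD4KO cells were made, and whether they are 1 clone, is not given in the sources used here. Replicates are said to be biological without further detail, so the p-values measure the spread between these libraries.

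The proteasome is the protease complex that breaks down ubiquitin-tagged proteins in the cytosol and nucleus. Its barrel-shaped core is built from rings of alpha subunits (PSMA genes), which gate the entrance, and rings of beta subunits (PSMB genes), some of which cut the substrate. A regulatory particle caps the core. Its base contains a ring of ATPases (PSMC genes) that unfold substrates. The base and lid also hold non-ATPase subunits (most PSMD genes), some of which bind or remove ubiquitin. PSME genes encode alternative activators that cap the core, PSMF1 encodes a proteasome inhibitor, and PSMG genes encode chaperones of core assembly.

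TEAD4 RNA was not lower in libraries labelled TEAD4KO. The transcript ranged from 22.9 to 25.8 FPKM over the 6 WT libraries and from 26.0 to 30.1 FPKM over the 6 labelled TEAD4KO. The log2 difference was 0.17 ± 0.063 untreated (SE, limma adjusted p = 0.135) and 0.23 ± 0.063 with GLUP (adjusted p = 0.0479). These data hold no protein values, so the RNA level does not decide whether TEAD4 protein was lost. The groups are therefore called libraries labelled TEAD4KO, and each direction between genotypes rests on that label. Among markers, the mesenchymal gene VIM averaged 1420 FPKM, whereas the epithelial genes KRT8 and CDH1 averaged 5.78 and 2.75 FPKM, and EPCAM, KRT18, the mesenchymal gene CDH2 and the leukocyte marker PTPRC averaged 0.180 FPKM or less. COL1A1, a fibroblast collagen, averaged 239 FPKM. FPKM totals were 375361 to 384477 in WT libraries and 397321 to 423757 in libraries labelled TEAD4KO, and the sequencing depth is unknown. Untreated library 1 and GLUP library 16, both labelled TEAD4KO, lay nearest to WT and are set apart below.

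Proteasome genes were abundant. Their median of mean FPKM was 64.5, against 10.5 over all rows tested. Of the 45 genes, 42 lay above the median of all rows and 28 were among the top 10% of rows. The core genes had a median level of 99.1 FPKM, the base and lid genes 61.2 FPKM, and the regulators 30.2 FPKM. Transcripts of the members were short, with a median of 1518 bases (1020 for core genes) against 3344 bases over all rows, and their median GC content was 48.4% against 48.2%.

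**Figure D1:**
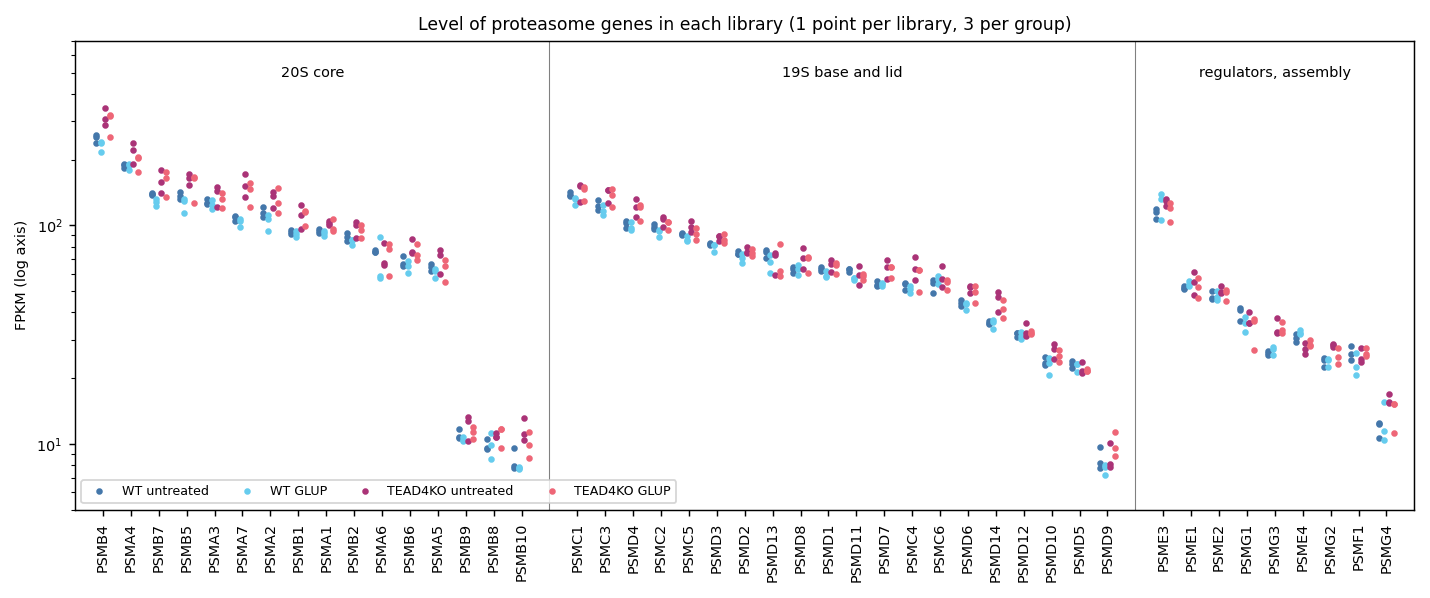
FPKM (log axis) of the 45 proteasome genes in each of the 12 libraries. Each point is 1 library, colored by group, and genes are ordered by mean level within the core, the base and lid, and the regulators. PSMB8, PSMB9 and PSMB10 lie near 10 FPKM, far below the other core genes, of which PSMA5 is the lowest with a mean of 64.5 FPKM.

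The 7 alpha subunit genes lay within 3.04-fold of each other, from PSMA5 at 64.5 to PSMA4 at 196 FPKM. The 9 beta subunit genes spanned 29.0-fold, from PSMB10 at 9.42 to PSMB4 at 273 FPKM. PSMB4, a structural beta subunit with no cutting activity, was the highest of all members. The 6 ATPase genes lay between PSMC6 at 55.4 and PSMC1 at 138.5 FPKM. The 14 non-ATPase genes ran from PSMD9, an assembly chaperone of the base, at 8.70 to PSMD4, a ubiquitin receptor, at 109 FPKM. Among regulators, PSME3, the nuclear activator, was highest at 121 FPKM, and the core chaperone PSMG4 was lowest at 13.5 FPKM. The ATPases thus occupied a narrow range of levels, as did the alpha subunits, while the beta and non-ATPase genes each included members expressed far below the rest.

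The catalytic beta subunits come in constitutive forms (PSMB5, PSMB6 and PSMB7) and in immunoproteasome forms that interferon induces (PSMB8, PSMB9 and PSMB10, respectively). PSMB5, the chymotrypsin-like subunit, measured in untreated WT cells 135.9, 142.7 and 132.7 FPKM and its counterpart PSMB8 9.59, 10.5 and 9.50 FPKM. PSMB6, the caspase-like subunit, was at 66.3, 72.7 and 65.1 FPKM, against 10.7, 11.7 and 10.8 FPKM for PSMB9. PSMB7, the trypsin-like subunit, was at 139, 141 and 138 FPKM, against 9.59, 7.93 and 7.74 FPKM for PSMB10. The constitutive form was the higher one in every pair and library. In untreated WT libraries PSMB8 stood at 7.19% ± 0.158 of PSMB5 (SD, n = 3), PSMB9 at 16.2% ± 0.319 of PSMB6 and PSMB10 at 6.04% ± 0.742 of PSMB7. The group means of these ratios over all 4 groups were 6.71% to 7.90%, 15.1% to 16.3% and 6.04% to 7.37%. PSMB8 and PSMB9 overlap on opposite strands, each also with PSMB8-AS1, and whether the authors' quantification used strand is not stated, so their values may share fragments.

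PSME1 and PSME2, the subunits of the interferon-inducible activator PA28, were at similar levels, with PSME1 at 109% ± 6.60 of PSME2 in untreated WT libraries (SD, n = 3) and between 107% and 114% as group means. PSME3 averaged 114 ± 6.64 FPKM in the same libraries, PSME4, the large activator PA200, 30.5 ± 1.26 FPKM and PSMF1 26.0 ± 1.96 FPKM. Spread between replicates differed between genotype labels. The median coefficient of variation over the 45 genes was 3.72% in untreated WT and 4.40% in WT with GLUP, against 8.64% and 8.46% in the corresponding groups labelled TEAD4KO.

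The next comparison asked whether proteasome genes differed between genotype labels in untreated cells. PSMA7, an alpha subunit gene, PSMB10, PSMG3, an assembly chaperone gene, and PSMD14, the deubiquitinase of the lid, were higher in libraries labelled TEAD4KO, by 1.26- to 1.40-fold. Of the 45 genes, 4 (8.89%) passed an adjusted p under 0.05 in limma with Benjamini-Hochberg adjustment, and all 4 were higher, against 5.42% of all rows called (4.92% higher and 0.499% lower). No test of the difference between these shares was made. With a fold change over 2 as well, 0 members passed, against 0.0356% of all rows. By sign alone 38 of 45 genes were higher, against 6227 of the 11225 rows. The median log2 fold change of the members was 0.123, against 0.023 over all rows, with 0.193 for core genes, 0.104 for base and lid genes and 0.090 for regulators. Differences are given throughout on a log2 scale of FPKM + 1, which understates those of low genes.

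PSMA7 (ENSG00000101182, GRCh37 chromosome 20, 60711789 to 60718496, minus strand) measured 110.9, 109.8 and 105.2 FPKM in WT without GLUP, against 135.3, 171.7 and 150.8 FPKM in untreated libraries labelled TEAD4KO. The groups did not overlap. The difference was 0.48 ± 0.095 on the log2 scale (SE, n = 3 per group, limma adjusted p = 0.0128). PSMG3 (ENSG00000157778, chromosome 7, 1606968 to 1610641, minus strand) was at 26.7, 25.5 and 26.2 FPKM in WT against 32.3, 37.7 and 32.7 FPKM, a difference of 0.37 ± 0.071 (SE, limma adjusted p = 0.0106). Its exons overlap the antisense gene PSMG3-AS1. 

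PSMB10 (ENSG00000205220, chromosome 16, 67968409 to 67970767, minus strand) was at 9.59, 7.93 and 7.74 FPKM in WT and at 13.1, 11.1 and 10.4 FPKM in libraries labelled TEAD4KO. Its lowest TEAD4KO value lay close above its highest WT value, and the log2 difference was 0.41 ± 0.11 (SE, limma adjusted p = 0.0432). An unnamed gene, ENSG00000261884, overlaps its exons on the same strand. PSMD14 (ENSG00000115233, plus strand of chromosome 2, 162164936 to 162268228) is named because it was the remaining called gene, after its values were seen. It was at 36.4, 35.7 and 35.2 FPKM in WT and at 39.9, 49.7 and 47.0 FPKM in libraries labelled TEAD4KO, which differ by 0.33 ± 0.084 (SE, limma adjusted p = 0.0375). In all 4 genes every untreated library labelled TEAD4KO lay above every untreated WT library. For PSMA7, PSMG3 and PSMB10 the rule for naming genes required this.

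Such separation was seen for 20 of the 45 genes upward and for 1 downward, against 18.3% and 7.47% of all rows. The 20 included 6 of the 9 beta subunits and 3 of the 7 alpha subunits. The gene that separated downward was PSME4, at 30.6, 29.2 and 31.7 FPKM in WT and 27.1, 25.8 and 29.0 FPKM in libraries labelled TEAD4KO. Its log2 fold change of -0.15 ± 0.061 (SE) did not pass (limma adjusted p = 0.162). PSMB5, PSMB6 and PSMB7 had log2 fold changes of 0.25 ± 0.096, 0.22 ± 0.081 and 0.18 ± 0.095 (SE), and none passed (limma adjusted p from 0.138 to 0.283). For PSMB8 and PSMB9 the values were 0.14 ± 0.098 and 0.11 ± 0.087, with 95% intervals from -0.08 to 0.35 and from -0.07 to 0.30.

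The same comparison in GLUP-treated cells gave 3 called genes of 45 (6.67%), all higher, against 5.84% of all rows called (4.91% higher and 0.935% lower). With a fold change over 2 as well it gave 0, against 0.0535% of all rows. PSMA7 measured 104.4, 106.7 and 98.1 FPKM in GLUP-treated WT and 147.2, 156.1 and 121.4 FPKM in those labelled TEAD4KO (log2 fold change 0.45 ± 0.095, SE, limma adjusted p = 0.0153). PSMG3 was at 25.4, 27.8 and 27.3 FPKM against 33.3, 36.1 and 32.1 FPKM (0.32 ± 0.071, adjusted p = 0.0186). PSMB4 (ENSG00000159377, plus strand of chromosome 1, 151372036 to 151374413) measured 237.8, 241.7 and 216.8 FPKM against 316.4, 321.0 and 253.0 FPKM (0.35 ± 0.093, adjusted p = 0.0458). In these 3 genes the groups did not overlap, as the rule for naming genes required, and the lowest library of each TEAD4KO group was library 16.

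PSMA7 and PSMG3 were called with and without GLUP. The group means came from separate libraries, but both tests used the same estimate of spread from all 12 libraries. PSMB4 had a log2 fold change of 0.32 ± 0.093 (SE) in untreated cells and missed the threshold there (limma adjusted p = 0.0652). PSMB10 and PSMD14 had 0.31 ± 0.11 and 0.22 ± 0.084 with GLUP and missed it there (adjusted p = 0.107 and 0.137). The members' median was 0.125 with GLUP, against -0.0039 over all rows, with 0.180 for core genes, 0.124 for base and lid genes and 0.027 for regulators. By sign 38 of 45 genes were higher, among them all 16 core genes, against 5518 of the 11225 rows. Separation of the groups was seen upward in 16 genes and downward in PSME4 alone, against 16.7% and 12.9% of all rows. PSME4 was again lower without passing (-0.16 ± 0.061, SE, limma adjusted p = 0.138). An alternative fit took the replicate number as a block in both treatments, though only the GLUP libraries met the criterion for pairing. It called 9 genes, all higher, beside 9.48% of all rows. These were PSMA2, PSMA7, PSMB1, PSMB4, PSMB5, PSMB7, PSMB10, PSMD9 and PSMG3.

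**Figure D2:**
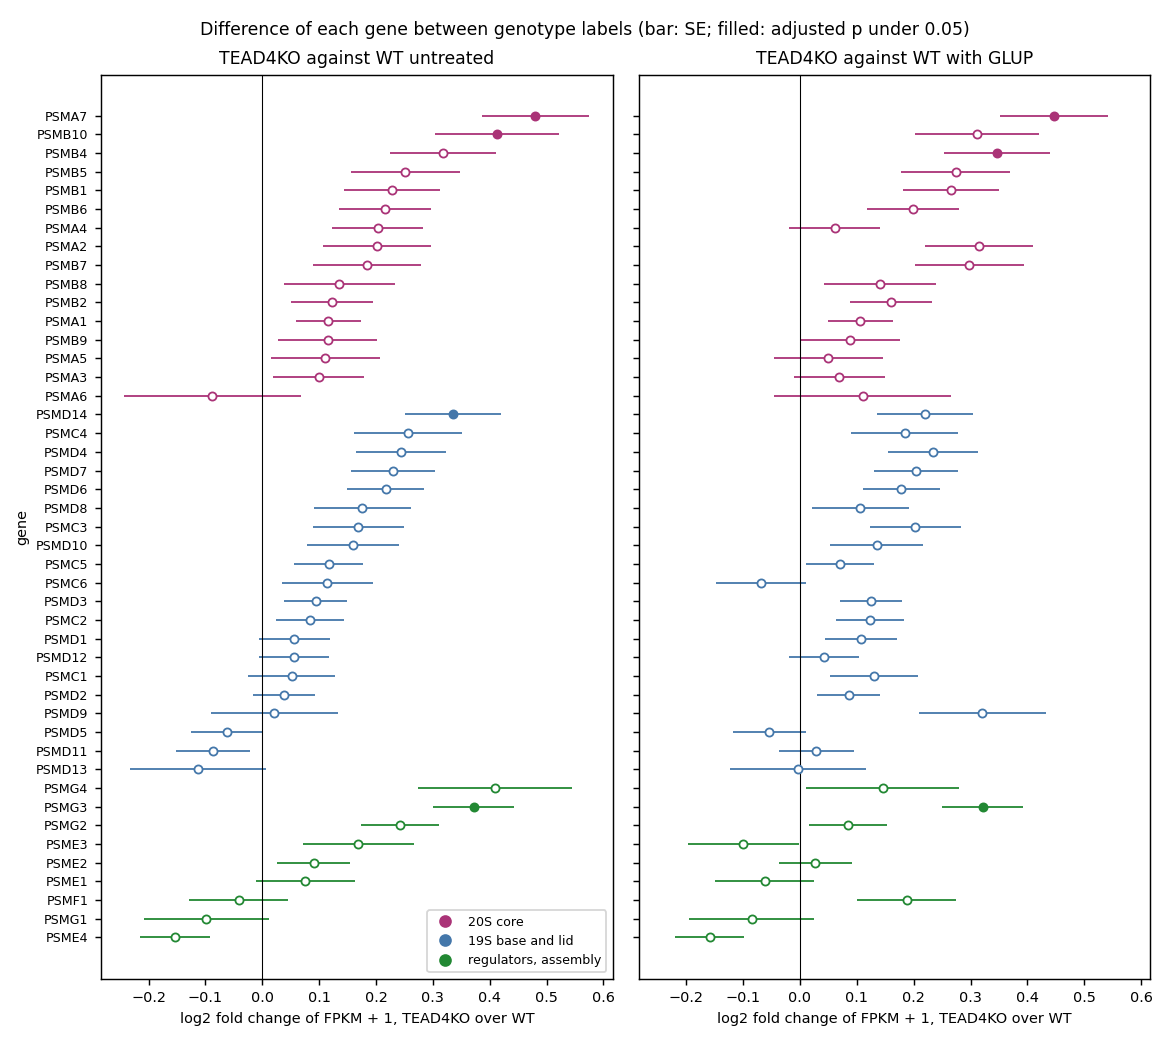
Log2 fold change of FPKM + 1 in libraries labelled TEAD4KO over WT for the 45 genes, in untreated cells (left) and with GLUP (right). Bars are the SE, filled points passed an adjusted p under 0.05, and genes are ordered within class by the untreated value. Most points lie right of 0, with PSMA7 farthest at 0.48 and 0.45.

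Libraries within the TEAD4KO groups were uneven for these genes. The median deviation of the 45 genes from their own means was -0.143 to -0.035 on the log2 scale in the 6 WT libraries. It was 0.184 and 0.135 in untreated libraries 2 and 3 labelled TEAD4KO, and 0.088 and 0.107 in GLUP libraries 14 and 15. Untreated library 1 lay at -0.012 and GLUP library 16 at -0.073. Without these 2 libraries, a choice made after their values were seen and one that moves the groups apart by its construction, 22 genes were called in untreated cells, all higher, beside 19.9% of all rows. With GLUP 21 were called, 20 higher and PSME4 lower, beside 27.8% of all rows. The members' medians were then 0.195 and 0.185.

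The libraries also differed in how deviations ran with transcript length over all genes. Spearman's rho of deviation with length was 0.124 to 0.474 in WT libraries and -0.568 to -0.090 in those labelled TEAD4KO, except for GLUP library 16 at 0.160. With the GC and length trends of the libraries taken out, 1 member was called in each comparison, beside 1.75% of all rows in untreated cells and 3.80% with GLUP. That gene was PSMA7 both times, with 0.32 ± 0.068 (SE, limma adjusted p = 0.0395) and 0.31 ± 0.068 (adjusted p = 0.0276). With the correction and the replicate block together, 3 genes were called with GLUP (PSMA7, PSMD9 and PSMF1, all higher), beside 4.11% of all rows. The corrected medians of the members were 0.057 and 0.076, and 9 of the 45 genes changed sign in each comparison, 0 of them called. PSMG3, PSMB10 and PSMD14 had corrected values of 0.20, 0.16 and 0.22 in untreated cells and did not pass. The part of the length trend in the differences was not tested.

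**Figure D3:**
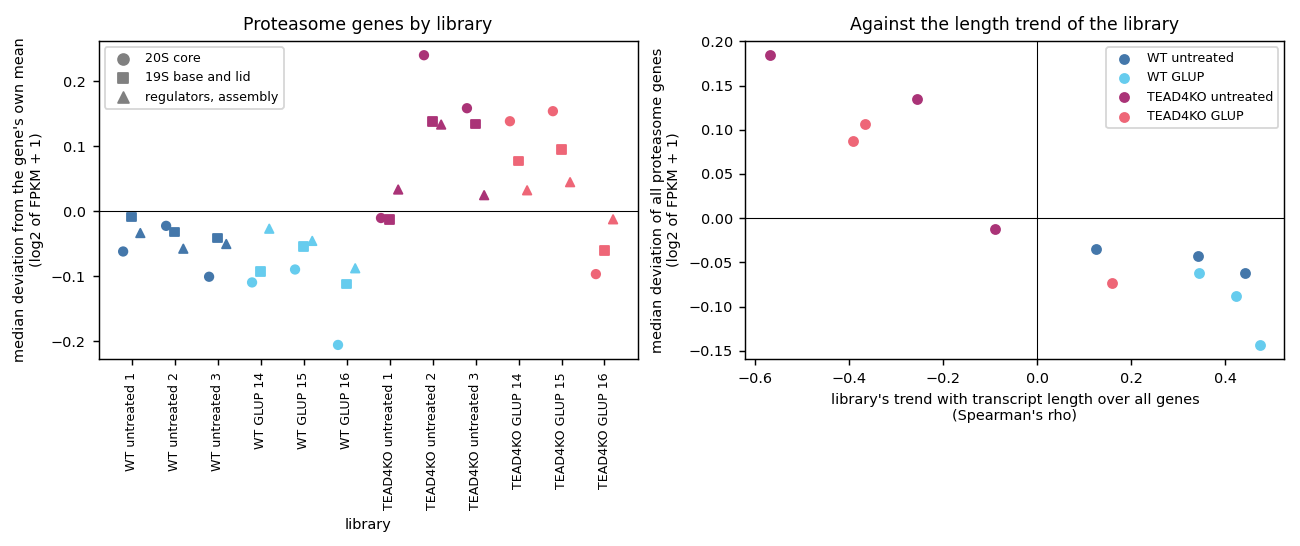
Left, median deviation of core, base and lid, and regulator genes from each gene's mean over 12 libraries (log2 of FPKM + 1), by library. Right, the same median over all 45 genes against the library's trend with transcript length (Spearman's rho over all genes), 1 point per library. The TEAD4KO-labelled libraries untreated 1 (-0.012) and GLUP 16 (-0.073) lie below the other 4, which reach 0.088 to 0.184.

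**Figure D4:**
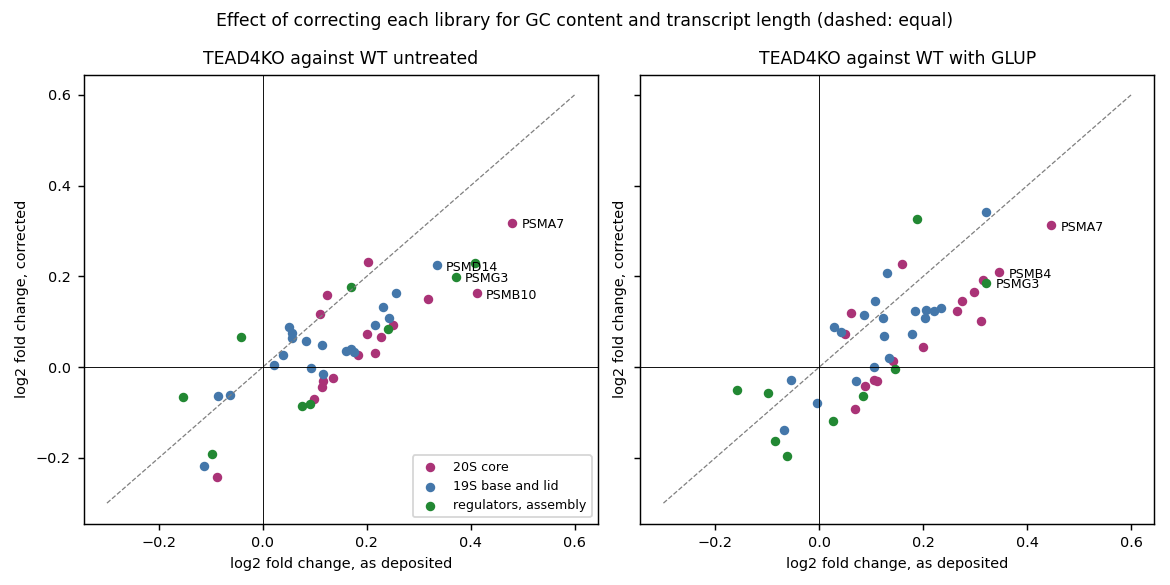
Log2 fold change of each of the 45 genes between genotype labels as deposited (x) and after correction for GC content and transcript length (y), untreated (left) and with GLUP (right). Named genes were called before the correction. Most points fall below the dashed line of equality, and PSMA7 stays at 0.32 and 0.31.

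The calls also depended on single libraries. Over 12 fits that each left out 1 library, PSMA7 lost its call in 2 untreated and 4 GLUP fits, PSMG3 in 1 and 4, PSMB10 and PSMD14 in 8 and 7 untreated fits, and PSMB4 in 9 GLUP fits. In untreated cells the number called was 0 without WT untreated 3, 1 without TEAD4KO untreated 2, and 2 without WT untreated 2, WT GLUP 14 or WT GLUP 15. It was 10 without either TEAD4KO untreated 1 or TEAD4KO GLUP 16. With GLUP it was 0 without WT GLUP 14, WT GLUP 16, TEAD4KO GLUP 14 or TEAD4KO GLUP 15, and 7 and 14 without TEAD4KO untreated 1 and TEAD4KO GLUP 16.

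Whether GLUP changed proteasome genes was compared within each genotype label. In WT cells 0 of 45 genes passed (limma), beside 0.00891% of all rows, and 0 had an unadjusted p under 0.05, beside 3.43%. Differences were small, with a median log2 fold change of -0.054 against 0.0088 over all rows. By sign 37 genes were lower, including all 16 core genes, against 5178 of the 11225 rows. The lowest value was -0.19 ± 0.15 (SE) for the alpha subunit PSMA6, which ranged from 57.5 to 88.6 FPKM in WT libraries with GLUP, and the highest was 0.13 ± 0.097 for PSME3. The 95% intervals of the 45 genes reached from -0.52 to 0.35 at their outermost. These SEs, p-values and intervals used 1 estimate of spread from all 12 libraries. Replicates labelled TEAD4KO varied more, with median coefficients of variation of 8.64% and 8.46% against 3.72% and 4.40% in WT. The WT intervals may therefore be wider than WT libraries alone would give. Fitted on the 2 WT groups alone, 0 members were called, beside 0.00891% of all rows. Groups separated downward in 7 genes, among them PSMB5 and PSMB7, and upward in 0, against 7.16% and 10.2% of all rows.

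PSMB5 lay below its untreated range, with 129.7, 131.5 and 113.8 FPKM in GLUP-treated WT against 132.7 FPKM for its lowest untreated library. The log2 fold change of -0.13 ± 0.096 (SE) had a 95% interval from -0.34 to 0.07. PSMB6 and PSMB7 had -0.07 ± 0.081 and -0.12 ± 0.095, with intervals from -0.24 to 0.11 and from -0.33 to 0.08. PSMB8, PSMB9 and PSMB10 had -0.00 ± 0.098, -0.06 ± 0.087 and -0.10 ± 0.11. All 6 intervals, on the spread shared by all 12 libraries, included 0.

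In libraries labelled TEAD4KO, 0 of 45 genes passed with GLUP, beside 0.0445% of all rows. The median log2 fold change was -0.051 against -0.017 over all rows. Leaving out TEAD4KO GLUP 16 brought the members' median to -0.0034, and leaving out TEAD4KO untreated 1 brought it to -0.110. With all 12 libraries, 39 genes were lower by sign, against 6386 of the 11225 rows. PSMG2, a core assembly chaperone, was the 1 gene with an unadjusted p under 0.05, beside 6.38% of all rows. Its untreated values of 28.7, 27.6 and 28.3 FPKM compare with 23.3, 27.5 and 24.9 FPKM after GLUP (-0.16 ± 0.069, SE, limma adjusted p = 0.758). Groups separated downward in PSMG2 and PSMG4 and upward in 0 genes, against 3.98% and 2.85% of all rows. The 95% intervals of all members lay between -0.49 and 0.41. They rest on the same shared spread, to which the less variable WT libraries contribute. PSMB5 had -0.11 ± 0.096, PSMB6 -0.09 ± 0.081 and PSMB7 -0.01 ± 0.095 (SE).

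**Figure D5:**
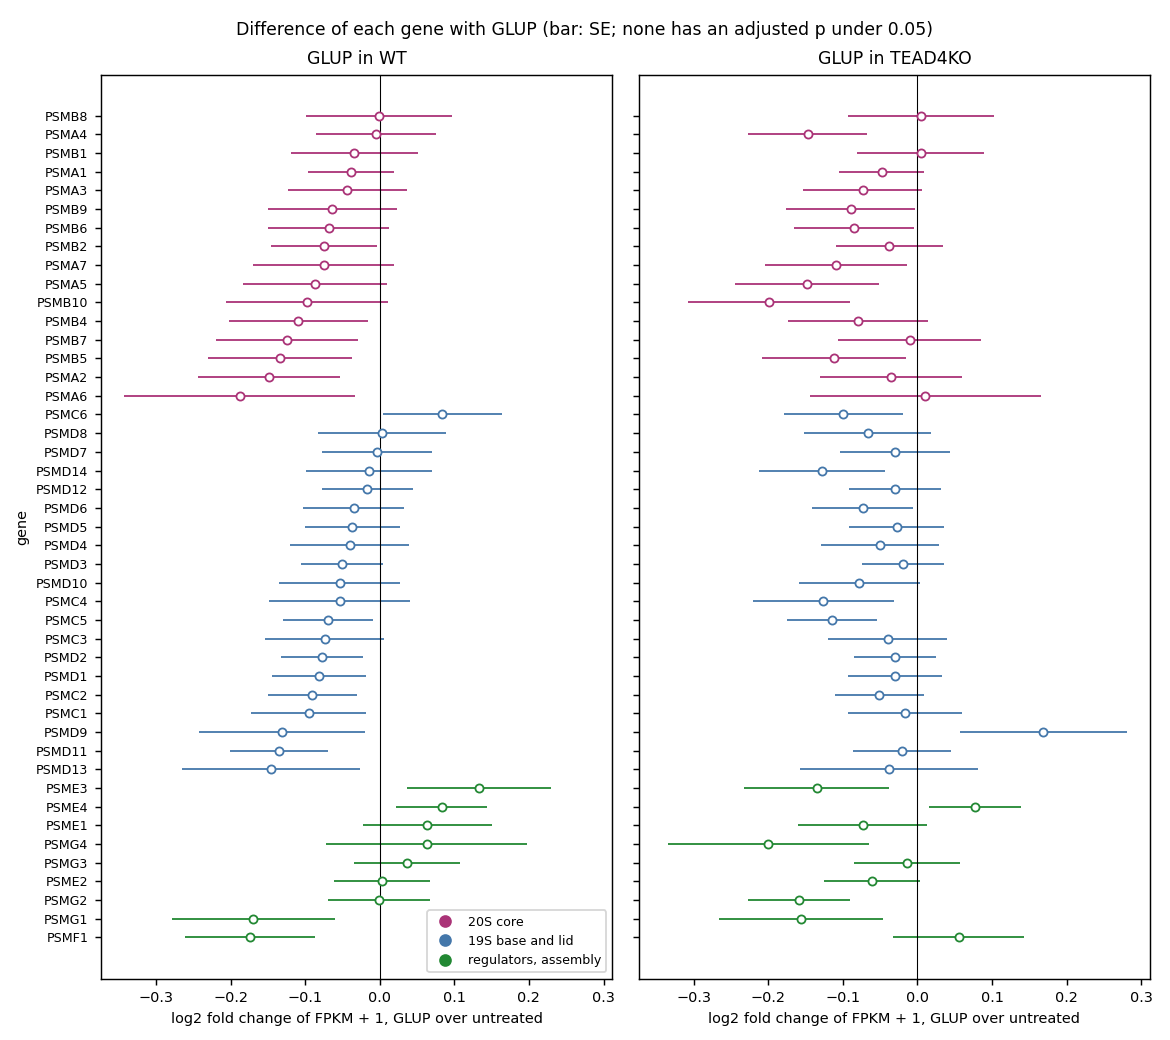
Log2 fold change of FPKM + 1 with GLUP over untreated for the 45 genes, in WT (left) and in libraries labelled TEAD4KO (right). Bars are the SE and open points did not pass an adjusted p under 0.05. All 45 points are open in both panels and lie between -0.20 and 0.17.

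Over both genotype labels together, with the label as a covariate, 0 of 45 genes passed, beside 0.303% of all rows. By sign 41 were lower, against 5877 of the 11225 rows. The members' median was -0.059 (-0.035 without TEAD4KO GLUP 16) against -0.0040 over all rows. The 95% intervals reached from -0.32 to 0.20. PSMG1, the partner chaperone of PSMG2 (-0.16 ± 0.075, SE, limma adjusted p = 0.654), and the ATPase PSMC5 (-0.09 ± 0.041, adjusted p = 0.634) had an unadjusted p under 0.05, beside 7.54% of all rows. The comparison of the GLUP difference between genotype labels (interaction) also gave 0 of 45, beside 0.00891% of all rows, with 0 at an unadjusted p under 0.05, beside 2.53%. The interaction estimates ran from -0.27 ± 0.14 for PSME3 to 0.30 ± 0.16 for PSMD9 (SE). PSME3 averaged 114 and 126 FPKM in WT without and with GLUP, and 128 and 117 FPKM in libraries labelled TEAD4KO. The comparisons share libraries, so their signs are not independent of each other.

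Other genes of the pathway comprised 29 that assist, feed or control the proteasome, all of them tested. They include the maturation factor POMP, the transcription factor NFE2L1, the unfoldase VCP, shuttle proteins and ubiquitin genes. GLUP gave 0 calls among them in either genotype label, beside 0.00891% of all rows in WT and 0.0445% in TEAD4KO. ADRM1, a ubiquitin receptor of the base, was the 1 gene called between genotype labels, in both comparisons and upward each time, so that 1 of 29 stands beside 5.42% of all rows untreated and 5.84% with GLUP. It averaged 68.9 ± 1.98 FPKM in untreated WT, 63.7 ± 0.897 in WT with GLUP, 86.3 ± 6.68 in untreated TEAD4KO-labelled libraries and 82.1 ± 5.26 with GLUP (SD, n = 3). The log2 fold changes were 0.32 ± 0.066 and 0.36 ± 0.066 (SE, limma adjusted p = 0.0151 and 0.0069). Neither call remained after the GC and length correction, with values of 0.08 ± 0.065 and 0.16 ± 0.065 (SE, adjusted p = 0.588 and 0.172). The median of the 29 was 0.033 and -0.010, against 0.123 and 0.125 for the subunit genes.

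Promoter sequences (RefSeq, GRCh38.p14, 250 bases before to 50 after the first listed start) were at hand for 39 of the 45 genes. PSMA7, PSMB1, PSMB6, PSMB7, PSMD4 and PSMG3 have no entry. The 100 bases before the start are shown for the called genes with an entry, because these are the proteasome promoters that the genotype comparison bears on. Capitals mark CGGAAG (the core of ETS factor sites), CCAAT (the NF-Y box) and a pair of GAAA runs with 2 bases of any kind between them (the core of interferon-stimulated response elements), each on either strand.
PSMB4 (chr1:151399473-151399572, plus strand): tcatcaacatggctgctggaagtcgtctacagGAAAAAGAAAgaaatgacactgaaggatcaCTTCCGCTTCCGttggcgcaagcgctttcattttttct
PSMB10 (chr16:67936851-67936950, minus strand): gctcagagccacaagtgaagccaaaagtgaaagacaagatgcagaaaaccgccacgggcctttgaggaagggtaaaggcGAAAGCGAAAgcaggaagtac
PSMD14 (chr2:161308325-161308424, plus strand): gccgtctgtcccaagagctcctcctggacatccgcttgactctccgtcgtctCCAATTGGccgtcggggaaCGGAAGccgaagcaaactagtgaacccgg
PSMB4 holds 2 adjoining ETS cores and an interferon-type core, PSMB10 an interferon-type core, and PSMD14 an ETS core beside a CCAAT and its reverse that overlap. Another ETS core of PSMD14, from -3 to 3 around the start, runs past the end of the stretch and is not marked.

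Over the whole windows, CGGAAG was found in 20 of 39 members (51.3%), against 19.5% of 35116 promoters. Base and lid genes held it in 13 of 19, core genes in 5 of 12 and regulators in 2 of 8. The GAAA pair was found in 6 members (15.4%, against 3.57%), namely PSMA4, PSMB4, PSMB10, PSME1, PSME2 and PSMG4. CCAAT was found in 43.6% of members against 34.6%, and the GC box GGGCGG in 66.7% against 45.0%. CATTCC, the core of TEAD sites, was found in 3 members (7.69%, against 14%), PSMC6, PSME2 and PSME3. None of these 3 was called in any comparison. These matches are descriptions of letters and show no binding. The 35116 promoters were not limited to tested genes or to a single start per gene, whereas the members were. The shares here and below thus compare unlike sets.

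NFE2L1 is known to raise proteasome genes as a group through antioxidant response elements. Their core, TGACNNNGC on either strand, was found in 12 of 39 members (30.8%, against 13.3% of promoters), with 1 of 12 core genes, 6 of 19 base and lid genes and 5 of 8 regulators. The regulators' sites are shown because that class held them most often, with the core in capitals and its distance from the start counted in bases.
PSME1 (chr14:24136098-24136126, plus strand, from -86): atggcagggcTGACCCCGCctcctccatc
PSME2 (chr14:24146767-24146795, minus strand, from -175): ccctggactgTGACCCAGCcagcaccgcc
PSME4 (chr2:53971009-53971037, minus strand, from -34): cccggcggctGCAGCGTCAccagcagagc
PSMG1 (chr21:39183616-39183644, minus strand, from -183): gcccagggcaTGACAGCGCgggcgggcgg
PSMG2 (chr18:12658689-12658717, plus strand, from -39): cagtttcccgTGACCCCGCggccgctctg
PSME4 carries the core on the opposite strand, and PSMG2 and PSME1 share the run TGACCCCGC. None of the 5 was called in any comparison with all 12 libraries as first fitted. Under alternatives, PSMG2 was called higher in untreated cells with a filter of at least 5 FPKM and without TEAD4KO GLUP 14, 15 or 16. PSME4 was called lower with GLUP under quantile normalization and under array weights. Both were also called when the 2 libraries set apart were left out.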

How the data were processed

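RNA of 12 HGC-27 libraries (4 groups of 3) was sequenced, and the authors deposited FPKM, 1 row per Ensembl gene and 1 column per library. The submitters' processing notes name HISAT2, Cufflinks, RSEM and hg19, without versions or roles, and the paper's methods name an online platform. FPKM removes neither GC nor fragment-length differences between libraries. Whole reads could not be recovered from low values, so depth is unknown and precision rests on the spread between replicates.

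Values were analysed as log2(FPKM + 1), a pseudocount of 1, for the 11225 rows whose mean reached 1 FPKM. A 4-group model was fitted with limma 3.58.1 in R 4.3.3 (eBayes with trend) and all p-values are two-sided, adjusted by Benjamini-Hochberg over all rows. GLUP over both genotypes used an additive model. A call is an adjusted p under 0.05. Symbols were matched for 96.52% of rows. Positions, lengths and GC content came from GENCODE 44 lifted to GRCh37.

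Members and gene lists were chosen with earlier results of these data known. Named with values were up to 3 called genes rising most and 3 falling most per comparison among those whose groups do not overlap, the catalytic and immunoproteasome beta subunits, PSME1 to PSME4, PSMF1, the highest and lowest gene of each class, TEAD4, and any called pathway gene. Genes named outside this rule were chosen after their values were seen. Cell type markers are given as levels, and PECAM1 was not matched.

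Replicate numbers come from the sample titles. Deviations of same-numbered libraries correlated between genotypes at 0.106, 0.152 and 0.336 for GLUP libraries 14, 15 and 16. All were over 0.1, the criterion for pairing. Differently numbered GLUP libraries also passed 0.1, with 0.134 for WT 14 with TEAD4KO 15 and 0.116 for WT 15 with TEAD4KO 14. The criterion thus does not single out pairs by number. Untreated libraries 1, 2 and 3 gave -0.057, 0.203 and -0.015 and did not meet it. The main fit paired no libraries, and the replicate block was an alternative that blocked untreated and GLUP libraries alike by number. Alternatives were another pseudocount, filter and scaling, no trend, array weights, only the groups compared, the replicate block, a GC and length correction (splines with 5 degrees of freedom) and leaving out each library.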

Additional observations from a re-analysis of the deposited data

How the results depend on the processing

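The 0 calls for GLUP in WT, GLUP in TEAD4KO, GLUP over both genotypes and the interaction were 0 under every alternative run. The members' medians for GLUP and between genotype labels kept their sign, but not their size. For GLUP in TEAD4KO the median was -0.0034 without TEAD4KO GLUP 16, against -0.0187 over all rows. Between genotype labels in untreated cells, 4 genes became 2 without a filter, with median-ratio scaling and with eBayes without trend, 8 with array weights, 1 with the GC and length correction (also with the replicate block), 0 with a fold over 2 as well, and 22 without the 2 libraries near WT, an alternative chosen after seeing the data. With the replicate block it became 7. Libraries share only a number, and not every one correlated best with its own, either untreated or with GLUP. With GLUP, 3 genes became 17 with array weights, 9 with the replicate block, 1 with the GC and length correction (3 with the replicate block as well), 0 with a fold over 2 as well and 21 without the 2 libraries. Leaving out 1 library gave 0 to 10 genes in untreated cells and 0 to 14 with GLUP. The causes of these changes were not tested. The 4 and 3 genes kept their calls under the block. GLUP and untreated groups share no replicate numbers. No paired analysis was possible for GLUP against untreated because of this.

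No gene called turned its direction. Among genes not called, 9 turned under the GC and length correction in each genotype comparison. Of the named genes, the untreated difference turned, with and without the replicate block, for PSMB8 (-0.025), PSMB9 (-0.045; -0.042 with GLUP), PSME1 (-0.086), PSME2 (-0.082) and PSMF1 (0.066). It turned with quantile normalization for PSME1 (-0.0049) and PSMC1 (-0.062) and with median-ratio scaling for PSMD9 (-0.0044). Leaving out 1 library turned PSME1 (from -0.0071 to 0.165 over these fits), PSMF1 (-0.103 to 0.012) and PSMD9 (-0.080 to 0.107). Depth is unknown, so a detection limit cannot be given.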

Other observations

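PSMA7, a subunit gene, and ADRM1, the pathway gene, both called in each genotype comparison, lie close together on chromosome 20 (starts at 60711789 and 60877149, GRCh37). This neighborhood was looked at after their values were seen. Within 1 Mb of PSMA7, 17 genes were tested. In each comparison 4 were called higher (PSMA7, ADRM1, OGFR and COL9A3) and 0 lower, beside 4.92% (untreated) and 4.91% (GLUP) of all rows called higher. PSMA7 and ADRM1, which prompted the look, are among the 4. The median log2 fold change of the 17 was 0.074 in untreated cells and 0.024 with GLUP, against 0.048 and 0.026 over the 294 tested genes of chromosome 20. TAF4, SS18L1 and OSBPL2, among the same 17, had values below 0 in both comparisons (-0.27, -0.18 and -0.10 untreated). After the GC and length correction, 1 of the 17 was called higher in untreated cells, and 2 were called higher and 1 lower with GLUP, beside 1.75% and 3.80% of all rows called. In untreated cells that 1 gene was PSMA7 itself, which was also among the 2 called higher with GLUP. ADRM1 was not among the genes called after the correction.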
